A study of Mus musculus with 3 samples.

Results

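The genes of the cell cycle and of DNA replication were described in mouse choroid plexus epithelium (CPE), the epithelial sheet that covers the choroid plexus of the brain ventricles and secretes cerebrospinal fluid. Members were taken by a rule on gene names: cyclins A, B, D and E, the numbered cyclin-dependent kinases (Cdk), their inhibitors, the Mcm, Cdc, Aurora, Bub1, Polo-like, origin recognition and E2F genes, Top2a, Mki67, Pcna, and the pocket protein genes Rb1, Rbl1 and Rbl2. This gave 83 genes with 156 probes among the 21597 named genes on the array, and 46 of the 83 had several probes. The CPE came from 3 healthy adult C57BL/6 mice, 1 array each, and was laser dissected from the lateral ventricles in frozen brain sections. CPE RNA carried Cy5, and Cy3 marked a common reference RNA of eye tissue, the retinal pigment epithelium (RPE) with the choroid, also from C57BL/6. These mice form 1 group with no treated or mutant mice to compare, every array had the same dye orientation, and the reference was 1 RNA, so a ratio of CPE over reference can hold a dye bias of its probe and leaves out the reference's own biological spread.

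A dividing cell passes from G1 into DNA synthesis when D cyclins with Cdk4 or Cdk6 phosphorylate the retinoblastoma family of pocket proteins, which then release E2F factors. E2F target genes include the Mcm helicase subunits and other replication factors, while cyclins A and B, the Aurora and Polo-like kinases and the spindle checkpoint genes act in S phase and mitosis. Choroid plexus epithelial cells of the adult brain seldom divide, and they carry tufts of cilia, whose many centrioles are made with parts of the same machinery.

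The dissected RNA was checked against cell type markers. Of 11 CPE markers, 10 were higher in CPE than in the reference, among them Ttr and Kl, and Otx2 was the exception with a log2 ratio of 0.14. All 9 RPE and melanocyte markers and all 7 photoreceptor markers were lower in CPE, as were 5 of 6 stromal, 4 of 5 macrophage, 3 of 3 red blood cell and 3 of 4 neuron markers. Several of these markers still had a high rank in CPE, such as Dcn of stroma and Lyzs of macrophages, at percentiles 98.3 and 97.8. The endothelial list had 1 of 6 genes higher, the lymphocyte list 0 of 3 past the threshold (1 lower and 1 higher at an unadjusted limma p under 0.05), the astrocyte list 1 of 4 higher and 1 lower, and the oligodendrocyte list 1 of 3 higher. The tyrosinase gene Tyr was not well above background on any CPE array. The other 8 RPE and melanocyte markers and all 7 photoreceptor markers were well above background on all 3 CPE arrays. Among them Dct, Si and Gnat1 also had a high rank in CPE, at percentiles 92.5, 93.1 and 93.6. Of the neural progenitor markers, Sox2 and Dcx were higher in CPE, at log2 ratios of 1.48 and 1.24, and Pax6 was lower, at -5.17. The array of mouse 3 had the brightest fitted background in the CPE channel, 363 against 81.2 and 82.6, and it was scanned on the same day as that of mouse 1. In the dissected tissue, fewer cells of a type and less RNA per cell cannot be told apart.

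Across the members, 5 were higher and 5 were lower in CPE than in the reference, by the brightest probe of each gene. A gene was called when limma's moderated test over all probes gave an adjusted p below 0.05 with a ratio of 2-fold or more. The higher genes were Cdk5, Ccnd3, Cdc14b, Plk2 and Plk3, and the lower genes were Cdc14a, E2f3, Ccnd1, Ccna2 and Bub1b. All 10 had the same sign in every mouse. Of the 78 members that could be tested, 68 did not pass the threshold, and for 58 members the 95% confidence interval of the ratio lay within 2-fold in either direction. The same rule called 8.93% of 15412 genes higher and 11.4% lower, so neither share of members was above that of all genes. With each array centred on its median, 8 members were higher and 5 lower, against 18.8% and 7.49% of all genes. An interval within 2-fold was seen for 60.8% of all genes. The median log2 ratio was -0.11 over the members and -0.02 over all genes tested, and it differed between arrays, at -0.11, 0.06 and -0.25 for the members in mice 1, 2 and 3. To be tested, a probe had to exceed background clearly in either channel on each of the 3 arrays, and 5 members were too dim for this: Cdkn2a, Ccna1, Ccnb3, Aurkc and Cdc20b.

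**Figure D1:**
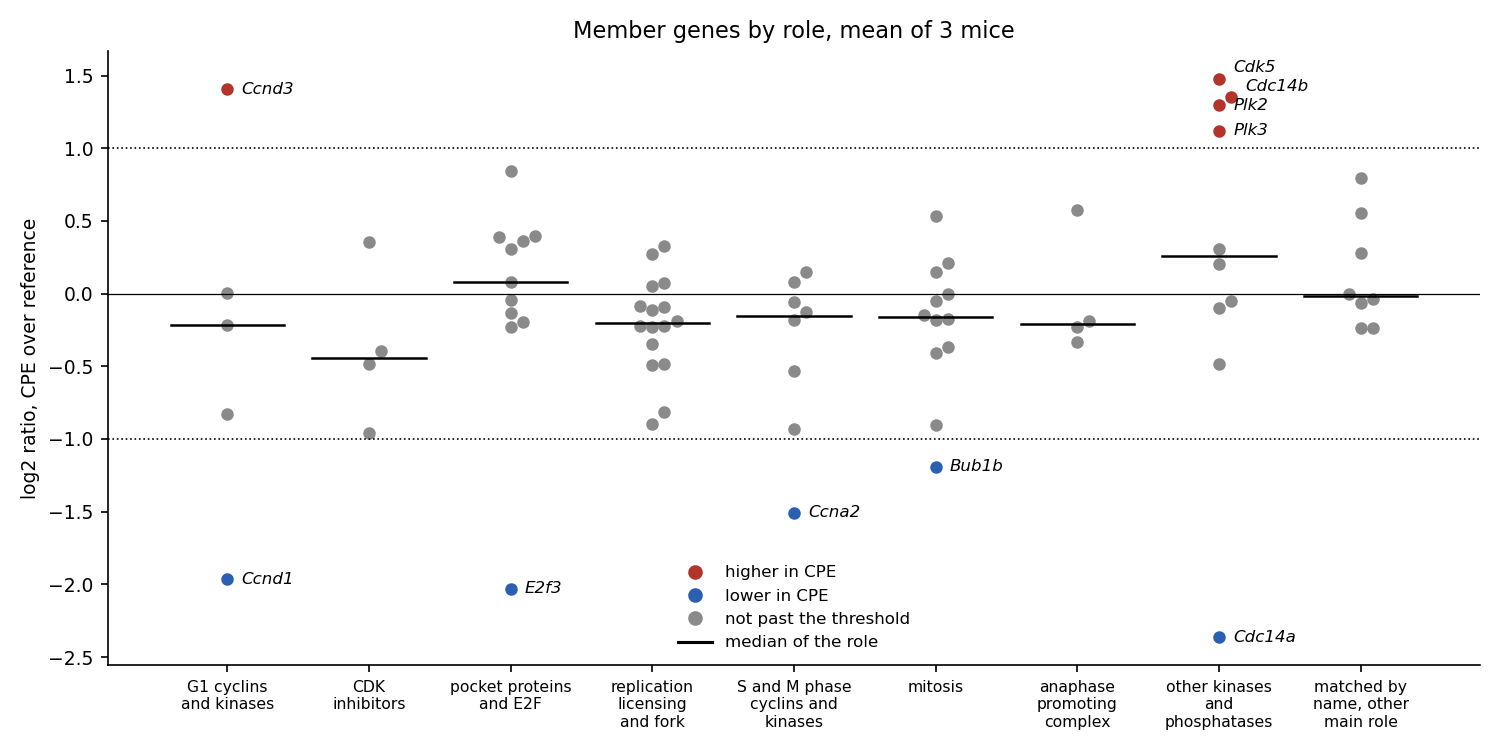
Mean log2 ratio of CPE over reference (y axis) for each tested member gene, by role (x axis), with the dotted lines at 2-fold. Only 10 of 78 genes lie past the threshold, 4 of the 5 higher ones are among the other kinases and phosphatases, and all 16 replication licensing and fork genes lie inside the lines.

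The G1 genes held a wide contrast, with 1 D cyclin higher, 1 lower and 1 not past the threshold. These were the only calls among the 5 G1 genes, all tested, against 8.93% higher and 11.4% lower of all genes. Ccnd1, cyclin D1, had log2 ratios of -1.86, -2.03 and -2.002 in mice 1, 2 and 3, all far below the reference. Its mean was -1.97 ± 0.15 (SE), 3.91-fold lower in CPE (limma adjusted p = 8.2e-05). Ccnd3, cyclin D3, had log2 ratios of 1.56, 1.32 and 1.35, all more than 2-fold above the reference. Its mean was 1.41 ± 0.15 (SE), 2.65-fold higher in CPE (limma adjusted p = 0.00041), and its signal in CPE ranked at percentile 97.9 of all probes. The single probe of Ccnd1 lies on mm8 at chr7:144739658-144739717 on the minus strand, and that of Ccnd3 at chr17:47062509-47062568 on the plus strand.

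Ccnd2, cyclin D2, divided the mice. Its log2 ratios were 0.78, -0.92 and 0.15, so that mouse 2 lay below the reference and mouse 1 above it. The other 2 probes of Ccnd2 had log2 ratios of 0.55, -0.92 and 0.17, and of 0.60, -0.53 and -0.02, with mouse 2 lowest and mouse 1 highest at every probe. The mean of the brightest probe was 0.01 ± 0.30 (SE), with a 95% interval from -0.68 to 0.69, and the gene did not pass the threshold (limma adjusted p = 0.99). Among the members, Ccnd2 had the largest SD of the log2 ratio between mice, 0.863, and 98.3% of all tested genes had a smaller one. Its signal in CPE ranked at percentiles 97.7, 92.8 and 96.3 in the 3 mice, thus high in each.

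The kinase partners of the D cyclins did not pass. Cdk4 had log2 ratios of 0.19, -0.71 and -0.13, mouse 2 again being the lowest. Cdk6 was below the reference in every mouse, at -0.89, -0.51 and -1.08. Its mean of -0.83 ± 0.17 (SE) had an adjusted p of 0.0074 in limma but was under 2-fold.

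The inhibitors of these kinases were likewise within the threshold, with 4 of 5 tested and 0 called, though 2 of the 4 were below the reference at an adjusted p under 0.05, as were 23.6% of all genes. Cdkn1b, which encodes p27, was the one inhibitor in the high class, at percentile 93.2 in CPE. It had log2 ratios of -0.84, -1.14 and -0.90, all below the reference, with a mean of -0.96 ± 0.16 (SE) that fell just short of 2-fold (limma adjusted p = 0.0026). A second probe of Cdkn1b gave 0.10, -0.39 and 0.34, and this dimmer probe, at percentile 40.5, did not share that direction. Cdkn1a, which encodes p21, had log2 ratios of 0.75, 0.82 and -0.51, with mouse 3 alone below the reference. Cdkn2b and Cdkn2d, inhibitors of Cdk4 and Cdk6, were below the reference in each mouse, with means of -0.48 and -0.40. Cdkn2a, the locus of p16 and p19Arf, was not well above background on any reference array and on 1 CPE array only.

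**Figure D2:**
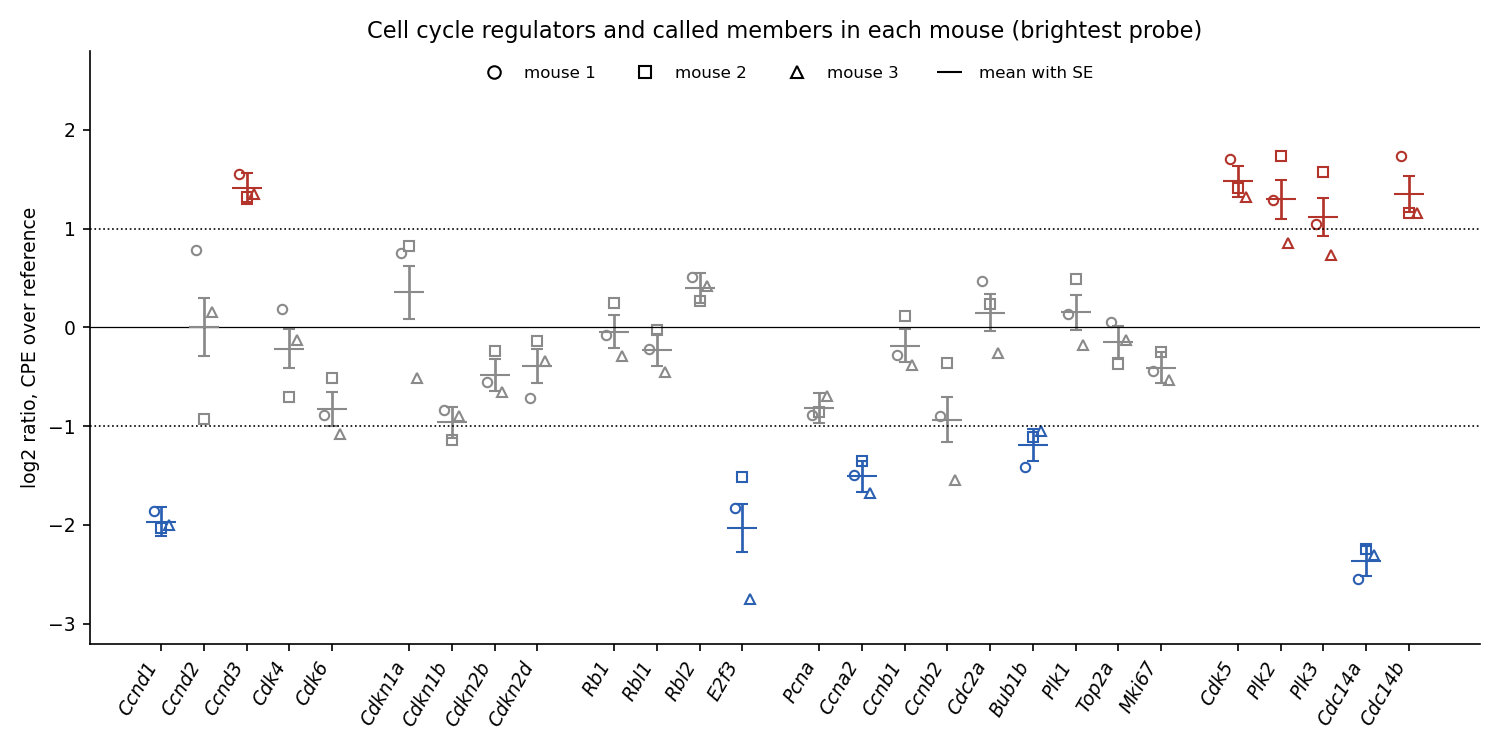
Log2 ratio of CPE over reference (y axis) of the called members and the main cell cycle regulators (x axis) in each mouse, as symbols, with the mean and its SE as bars (red, higher; blue, lower; grey, not past the threshold; dotted lines, 2-fold). The 3 mice lie close together for Ccnd1 and Ccnd3 and far apart for Ccnd2 and Cdkn1a.

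The rule for names left out Cdkn1c, which encodes p57, and Cdkn2c, which encodes p18. Both belong to a list of cell cycle exit genes examined beside the members. Cdkn1c had log2 ratios of 2.37, 2.23 and 2.36, all more than 2-fold above the reference. Its mean was 2.32 ± 0.15 (SE, limma adjusted p = 3.9e-05), and at percentile 98.9 its signal ranked in the high class. Cdkn2c moved the opposite way, at -1.58, -1.60 and -1.82, with a mean of -1.67 ± 0.15 (SE, limma adjusted p = 0.00019). Of the 14 genes of that list, all tested, 2 were higher in CPE and 5 were lower, against 8.93% and 11.4% of all genes. The other higher gene was Mdm2, the ubiquitin ligase of p53, at 1.18, and the other lower genes were Gas1 at -2.41, Btg2 at -1.27, Btg1 at -1.16 and Ccng2 at -1.04. The median log2 ratio of the list was -0.0051.

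Among the pocket proteins and E2F factors, 1 of 11 genes was called, as lower in CPE, against 11.4% of all genes. E2f3, an E2F factor of the activator type, had log2 ratios of -1.83, -1.52 and -2.74, all below the reference, with mouse 3 the lowest. Its mean was -2.03 ± 0.24 (SE), 4.09-fold lower (limma adjusted p = 0.00061). The call rested on 1 of 4 probes, since the other 3 were too dim to be tested. The pocket protein genes were close to the reference: Rb1 had log2 ratios of -0.08, 0.25 and -0.29, Rbl1 had -0.22, -0.03 and -0.45, and Rbl2 had 0.51, 0.26 and 0.42. The 95% intervals of all 3 lay within 2-fold, from -0.43 to 0.35 for Rb1, from -0.61 to 0.14 for Rbl1 and from 0.04 to 0.75 for Rbl2.

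Some E2F genes were named here after their values had been seen. E2f4, an E2F factor of the repressor type that also acts in multiciliated cells, had log2 ratios of 0.09, 1.25 and -0.25, with mouse 2 alone above 2-fold. E2f7, an atypical repressor, had 1.34, 1.05 and 0.14, and its mean of 0.84 ± 0.24 (SE) passed the adjusted p in limma, at 0.026, but not 2-fold. It was well above background on all 3 CPE arrays and on 1 reference array. E2f8, the other atypical repressor, was not well above background on any CPE array. For E2f1 the brightest probe, at 0.31, was not called, whereas its second probe gave 1.25, 1.26 and 0.56 with a mean of 1.02 (limma adjusted p = 0.0048) and was above background on 1 reference array.

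The replication licensing and fork genes stayed near the reference: all 16 were tested, and 0 passed the threshold in either direction. At an unadjusted limma p under 0.05, 4 of the 16 were below the reference and 0 above it, and 3 of these 4, Orc3l, Pcna and Orc6l, also had an adjusted p under 0.05 at less than 2-fold. Over all genes, 27.6% were below and 24.9% above the reference at that unadjusted limit, and 23.6% below and 20.4% above at the adjusted one, so these counts were not above the shares of all genes. Their log2 ratios ran from -0.90 to 0.32 with a median of -0.21, and the median by mouse was -0.33, 0.04 and -0.38. Pcna, the sliding clamp of DNA polymerases and the brightest of them in CPE at percentile 96.6, had log2 ratios of -0.89, -0.86 and -0.70, all below the reference. Its mean of -0.81 ± 0.15 (SE, limma adjusted p = 0.0047) was under 2-fold. None of the 7 Mcm genes, Mcm2 to Mcm7 of the replicative helicase and their relative Mcm8, reached an adjusted p under 0.05. Mcm2 was the highest with log2 ratios of 0.06, 0.72 and 0.20, and Mcm3 the lowest with -0.58, 0.02 and -0.90. In CPE, 14 of the 16 genes were well above background on every array and 13 were in the moderate class.

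Orc3l, the older symbol of the origin recognition gene Orc3, had the lowest ratio of the group, -0.90, but its probes were not alike. The brightest probe lies on mm8 at chr4:34756589-34756648 on the plus strand, which is opposite to the strand of the Orc3 transcript. Of the other 4 probes, 3 lie on the minus strand, that of the transcript. Those 3 had mean log2 ratios of 0.16, 0.03 and 0.51, and the second probe of the plus strand had 0.50, so only the brightest was below the reference. The value of Orc3l is therefore uncertain, and without it the group's lowest log2 ratio was that of Pcna, -0.81.

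A wider list of replication fork genes outside the name rule was examined beside the members. Of 32 genes on the array, 31 were tested, 0 passed the threshold, and the median log2 ratio was 0.0027. It included the primase, polymerase, replication factor C and ribonucleotide reductase subunits. The lowest was Rfc4, a clamp loader subunit, at -0.89 (limma adjusted p = 0.0078), and the highest was Uhrf1, which binds hemimethylated DNA, at 0.90 (limma adjusted p = 0.015). At an unadjusted limma p under 0.05, 6 of these 31 genes were below and 4 above the reference, against 27.6% and 24.9% of all genes. Neither count was above the share of all genes.

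The S and M phase cyclins and their kinases had a median percentile of 36.5 in CPE, the lowest of the roles with several genes. Of 10 genes, 7 were in the low class, 3 were well above background on all CPE arrays, and 8 were well above background on all reference arrays. Ccna2, cyclin A2, was the one gene called among the 8 tested, as lower in CPE, against 11.4% of all genes. It had log2 ratios of -1.50, -1.35 and -1.68, all below the reference, with a mean of -1.51 ± 0.16 (SE), 2.84-fold lower in CPE (limma adjusted p = 0.00032). Ccnb2, cyclin B2, was also below the reference in each mouse, at -0.89, -0.36 and -1.55, with a mean of -0.93 that did not reach 2-fold (limma adjusted p = 0.015). It was well above background on 1 CPE array, and the probe of its near-copy Ccnb2-ps, a pseudogene that may share its signal, gave a mean of -0.13. Ccnb1, cyclin B1, had -0.28, 0.11 and -0.38. The mitotic kinase Cdk1, listed under its older symbol Cdc2a, had 0.47, 0.24 and -0.26, and its mean of 0.15 had a 95% interval from -0.28 to 0.58.

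Among the mitotic genes, 1 of 12 tested was called, as lower in CPE, against 11.4% of all genes. In the high class were 0 of 13, against 15.7% of all named genes. Bub1b, which encodes the checkpoint protein BubR1, had log2 ratios of -1.42, -1.11 and -1.05, all more than 2-fold below the reference. Its mean was -1.19 ± 0.16 (SE), 2.28-fold lower (limma adjusted p = 0.0011). The proliferation marker Mki67 had -0.44, -0.25 and -0.53, with a mean of -0.41 (limma adjusted p = 0.072), and ranked at percentile 49.7 in CPE. Top2a, DNA topoisomerase II alpha, had 0.06, -0.37 and -0.12, and Plk1, Polo-like kinase 1, had 0.14, 0.49 and -0.18. Their adjusted p in limma was 0.51 and 0.54. Cdc20, an activator of the anaphase promoting complex named here after its values had been seen, was below the reference in each mouse, at -0.84, -0.73 and -1.15. Aurkb, the Aurora B kinase, was not well above background on any CPE array but was so on all reference arrays.

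The list of further mitotic genes outside the name rule had 25 tested genes, 2 of them higher and 3 lower. These counts were close to the shares of all genes, 8.93% higher and 11.4% lower. The lower genes were Birc5, which encodes survivin, at -1.26, Smc4, a condensin subunit, at -1.08, and Cenpe, a kinetochore motor, at -1.07. The higher genes were Espl1, which encodes separase, at 1.53, and Nuf2, a kinetochore protein, at 1.26. For both higher genes mouse 3 was far below the others, at 0.56 for Espl1 and 0.30 for Nuf2, and Espl1 was well above background on 1 reference array. The median of the list was -0.09.

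Promoters of the licensing and the mitotic genes were set side by side, because E2F factors and the complexes that bind the cell cycle homology region (CHR) are known for the control of these groups. The windows of RefSeq (GRCm38.p6) run from 250 bases before to 50 after the start of the first transcript listed, and 68 of the 83 members had one. The letters TTTCCCGC, TTTGGCGC, TTTCGCGC and TTTGCCGC were searched for E2F, and TTTGAA and CTTGAA for CHR, on both strands. An E2F match was in 16 of 68 member windows (23.5%) against 2.32% of all 27025 windows, and in 8 of 15 windows of licensing and fork genes. A CHR match was in 16 of 68 member windows (23.5%) against 28.4% of all windows, and in 6 of 11 windows of mitotic genes. A window with several matches counted once. Mcm6 and Mcm5, at log2 ratios of -0.23 and -0.09, stand for licensing genes with E2F letters. Bub1b and Cdc20, at -1.19 and -0.91, stand for mitotic genes with CHR letters, and E2f3, at -2.03, for a window with both. Only 2 member windows held both, and the other was that of Cdc2a, at 0.15, which was not called. Bub1b and Cdc20 were chosen after their values were seen and are the lowest of the 6 mitotic genes with CHR letters, and the other 4 lay closer to the reference, Mki67 at -0.41, Aurka at -0.18, Top2a at -0.15 and Plk1 at 0.15. The 8 licensing and fork genes with E2F letters ran from -0.90 for Orc3l and -0.49 for Mcm3 to 0.27 for Cdc6, so the ratios of the 2 groups overlapped. Matches are in capitals, each sequence reads from 5′ to 3′ on the strand of its gene, and the first windows lie at chr1:128359656-128359955 (minus strand, Mcm6) and chr8:75109259-75109558 (plus strand, Mcm5).
Mcm6: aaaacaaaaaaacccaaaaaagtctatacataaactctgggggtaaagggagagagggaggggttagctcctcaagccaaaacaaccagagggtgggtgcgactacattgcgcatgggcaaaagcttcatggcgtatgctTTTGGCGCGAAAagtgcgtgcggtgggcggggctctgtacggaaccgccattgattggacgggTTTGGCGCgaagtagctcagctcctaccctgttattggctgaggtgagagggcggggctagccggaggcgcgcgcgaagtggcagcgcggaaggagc
Mcm5: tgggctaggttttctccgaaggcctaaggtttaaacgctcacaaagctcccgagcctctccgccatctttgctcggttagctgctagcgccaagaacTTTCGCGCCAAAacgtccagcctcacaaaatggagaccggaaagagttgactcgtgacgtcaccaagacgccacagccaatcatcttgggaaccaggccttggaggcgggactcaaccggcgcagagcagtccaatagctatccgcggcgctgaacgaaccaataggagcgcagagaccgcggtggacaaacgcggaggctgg
The windows of the mitotic genes lie at chr2:118597961-118598260 (plus strand, Bub1b) and chr4:118437294-118437593 (minus strand, Cdc20).
Bub1b: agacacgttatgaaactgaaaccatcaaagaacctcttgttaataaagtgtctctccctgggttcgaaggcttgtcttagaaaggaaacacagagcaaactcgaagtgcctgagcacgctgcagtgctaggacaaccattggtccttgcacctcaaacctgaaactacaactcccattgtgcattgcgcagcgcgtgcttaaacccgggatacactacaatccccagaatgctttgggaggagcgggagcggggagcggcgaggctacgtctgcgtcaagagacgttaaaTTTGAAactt
Cdc20: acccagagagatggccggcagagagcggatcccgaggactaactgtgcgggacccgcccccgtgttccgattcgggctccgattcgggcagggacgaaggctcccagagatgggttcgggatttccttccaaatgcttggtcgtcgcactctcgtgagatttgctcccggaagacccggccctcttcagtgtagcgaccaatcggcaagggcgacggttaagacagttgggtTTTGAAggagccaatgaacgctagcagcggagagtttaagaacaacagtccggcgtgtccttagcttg
The window of E2f3 lies at chr13:29986014-29986313 on the minus strand.
E2f3: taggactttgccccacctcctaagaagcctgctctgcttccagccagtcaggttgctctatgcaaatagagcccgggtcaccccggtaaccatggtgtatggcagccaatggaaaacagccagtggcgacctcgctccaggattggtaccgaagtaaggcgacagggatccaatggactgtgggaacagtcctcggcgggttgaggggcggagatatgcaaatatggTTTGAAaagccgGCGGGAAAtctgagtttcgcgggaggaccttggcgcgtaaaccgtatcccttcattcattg
In Mcm6 and in Mcm5 a pair of E2F matches on opposite strands overlapped. In Cdc20 the CHR letters began 18 bases before the start, in E2f3 they began 23 bases before it, and in Bub1b they began at base 41 of the transcript. Of the 5 genes called higher, 4 had a window and 0 of the 4 held either motif. Of the 5 called lower, 3 had a window and all 3 held CHR letters. A match is a description of the letters and not a bound site, and the counts of called genes are too small for a comparison.

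The other kinases and phosphatases held 4 of the 5 higher members. Of these 10 genes, all tested, 4 were higher and 1 was lower, against 8.93% and 11.4% of all genes. Cdk5, an atypical kinase best known from neurons and activated by p35 rather than a cyclin, had log2 ratios of 1.70, 1.41 and 1.32, all above 2-fold. Its mean was 1.48 ± 0.16 (SE), 2.79-fold higher in CPE (limma adjusted p = 0.00039), and it ranked at percentile 92.7. Plk2, a Polo-like kinase with a role in centriole duplication, had 1.29, 1.74 and 0.86, with a mean of 1.29 ± 0.20 (SE, limma adjusted p = 0.00197). Plk3, a stress-responsive relative, had 1.05, 1.57 and 0.74, with a mean of 1.12 ± 0.19 (SE, limma adjusted p = 0.0035). For both Polo-like kinases mouse 2 was the highest and mouse 3 the lowest, and without mouse 2 the ratio of Plk3 was 0.89, under 2-fold.

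The Cdc14 phosphatases, which remove phosphates set by Cdk kinases, went in opposite directions. Cdc14b had log2 ratios of 1.74, 1.16 and 1.15, with a mean of 1.35 ± 0.18 (SE, limma adjusted p = 0.00102), and a second probe gave 0.65 (limma adjusted p = 0.096), mouse 1 being the highest at both. Cdc14a had the lowest ratio of all members, -2.55, -2.24 and -2.30 in the 3 mice, with a mean of -2.37 ± 0.16 (SE), 5.15-fold lower (limma adjusted p = 4.2e-05). Its other 3 tested probes had means of -0.55, -0.06 and -0.33 and were not called. The called probe lies on mm8 at chr3:116264863-116264922 on the minus strand, and with the mean over all tested probes of the gene the ratio was -0.83, under 2-fold.

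**Figure D3:**
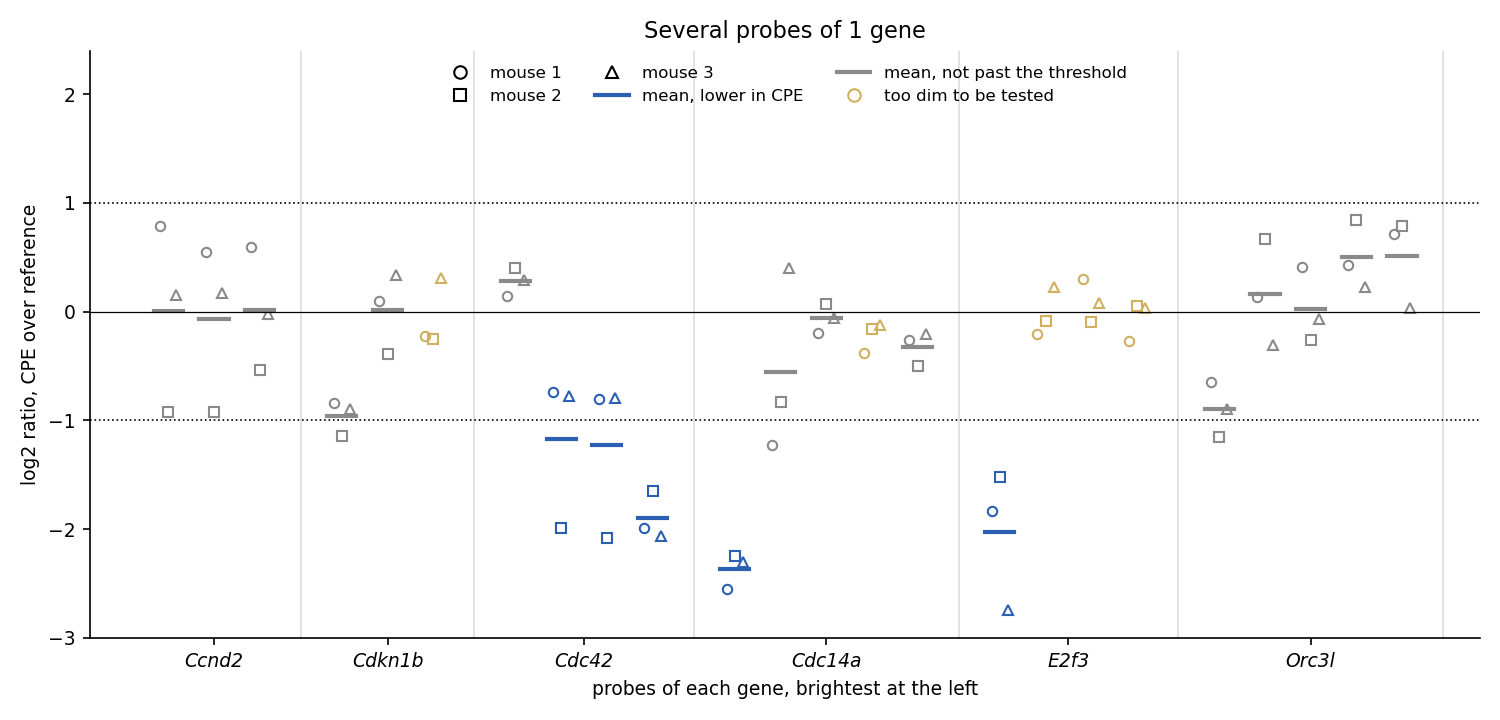
Log2 ratio of CPE over reference (y axis) for each probe of 6 member genes (x axis, brightest probe at the left), with symbols for the 3 mice and bars for the means. At each probe of Ccnd2 mouse 1 is the highest and mouse 2 the lowest, whereas the probes of Cdc42, Cdc14a and Orc3l lie at different levels.

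The anaphase promoting complex genes Cdc16, Cdc23, Cdc26 and Cdc27 were all tested, with log2 ratios between -0.33 and 0.58, and 0 were called. At an unadjusted limma p under 0.05, 1 of them was above the reference, as were 24.9% of all genes. Cdc16 was in the high class at percentile 92.0, and its log2 ratios of -0.41, 0.08 and -0.25 lay around the reference. Of the kinases that act on transcription, Cdk9 was in the high class at percentile 90.2, with log2 ratios of 0.16, 0.61 and 0.15. Its mean of 0.31 did not pass (limma adjusted p = 0.19).

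A total of 12 members, of 83, were in the high class of CPE, above the 90th percentile of all probes, which held 15.7% of all named genes. Another 48 were moderate, 22 low and 1 very low. The high members were Ccnd3, Ccnd2, Pcna, Cdkn1b, Cdc16, Cdk5, Cdk9, Cdc34, Cdc123, Cdc42, Cdc37 and Aurkaip1. The last 5 share a name with the cell cycle genes but are best known for other work: ubiquitin conjugation by Cdc34, assembly of a translation initiation factor by Cdc123, cell polarity through the small GTPase Cdc42, the Hsp90 chaperone with Cdc37, and an Aurora kinase interacting protein of mitochondrial ribosomes. Cdc34, at percentile 90.05, lay at the limit of the class. A rank orders probes on the array and not transcripts of different genes, since probes hybridise unequally. In the CPE channel 64 members were well above background on all 3 arrays, against 58.4% of all named genes, and in the reference channel 76 were, against 69.9%. By array, 71, 65 and 79 members were above background in CPE and 78, 77 and 81 in the reference, the most on the array of mouse 3 in both channels.

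**Figure D4:**
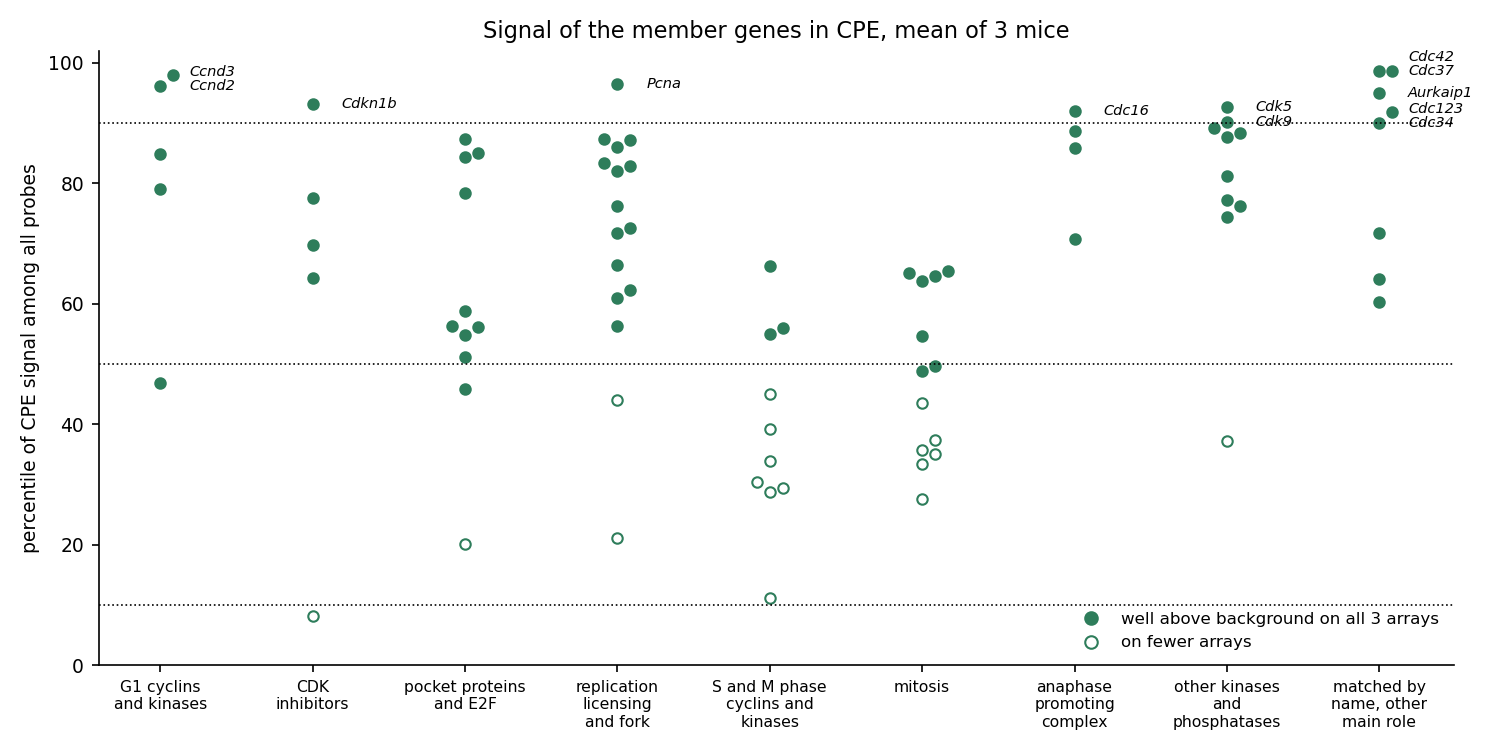
Percentile of the CPE signal among all probes (y axis, mean of 3 mice) for the member genes by role (x axis), with dotted lines at the class limits of 10, 50 and 90. Filled points were well above background on all 3 CPE arrays; the S and M phase and mitosis genes hold 15 of the 22 genes of the low class, and Cdc20b, also low, had no role and is not drawn.

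Of the 8 genes matched by name but best known for other work, 0 were called by the brightest probe. At an unadjusted limma p under 0.05, 2 of the 8 were above the reference, as were 24.9% of all genes. Cdc34 was the highest, at 1.09, 0.63 and 0.66, with a mean of 0.80 (limma adjusted p = 0.0078), and Cdc123 followed with 0.78, 0.53 and 0.36 and a mean of 0.56. Aurkaip1 was even between the mice, at -0.07 in each, and Cdc37 stood at 0.03, -0.01 and -0.02.

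The probes of Cdc42 disagreed with each other. Its brightest probe, at percentile 98.7, had log2 ratios of 0.14, 0.40 and 0.29, with a mean of 0.28 that did not pass (limma adjusted p = 0.19). The other 3 probes were all called lower. They had log2 ratios of -0.74, -1.99 and -0.78, of -0.81, -2.08 and -0.80, and of -1.99, -1.65 and -2.06, with means of -1.17, -1.23 and -1.90. The brightest probe lies nearest the 3′ end of the gene, on mm8 at chr4:136591974-136592033 on the minus strand. At the first and second of the other probes mouse 2 was far below the others, and at the third it was not.

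For 26 member genes the most 5′ and the most 3′ tested probe on the strand of the gene could be set side by side. In 19 of the 26 pairs the deviation of mouse 2 from the mean of mice 1 and 3 was lower at the 5′ probe, with a median difference of -0.42 on the log2 scale. Such pairs of other genes were not examined, so this count cannot be called particular to the members. The 5′ probe was also the dimmer one in most pairs, such as Cdkn1b, at percentile 40.5 against 93.2. For Orc3l it was the brighter one, at 71.5 against 57.9. Position and signal thus cannot be told apart, and some pairs lay close together, those of Cdk10 110 bases apart. Mouse 2 was scanned on a day of its own and had the fewest members above background in CPE. The part of either in this difference was not tested.

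The spread between mice was compared with the spread of the reference over the 62 members that were clearly above background everywhere. The median SD over the 3 arrays was 0.406 for CPE and 0.215 for the reference, a ratio of 1.88, and the SD was larger in CPE for 53 of the 62. Without mouse 3 the ratio was 3.72, and with each channel centred on its median it was 1.17. The first SD is between mice and the second between 3 arrays of 1 reference RNA. Over all genes the ratio was 1.94, and it was 2.62 without mouse 3 and 1.13 with each channel centred on its median. After Ccnd2, the members with the largest SD of the log2 ratio between mice were E2f4, at 0.787, Cdkn1a, at 0.749, and Cdc27, at 0.648. The median over the members was 0.254 and over all genes 0.255.

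The list of centriole and multicilia genes, which shares machinery with mitosis, had 3 of 10 tested genes higher in CPE and 0 lower. By the same rule 8.93% of all genes were higher and 11.4% lower. The median log2 ratio of the list was 0.62. At an adjusted p under 0.05 with any fold, 6 genes were above the reference and 2 below it, Cep152 at -0.89 and Rfx3 at -0.83. That limit was met above the reference by 20.4% of all genes and below it by 23.6%. The transcription factor Trp73 had log2 ratios of 4.36, 4.58 and 3.01, with a mean of 3.99 ± 0.29 (SE, limma adjusted p = 6.7e-05), but its reference signal was well above background on 1 array only, which leaves the size of this ratio unsure. Foxj1, the regulator of motile cilia, had 3.65, 3.57 and 1.73, with a mean of 2.98 ± 0.36 (SE, limma adjusted p = 0.00063). Rfx2, another ciliary factor, had a mean of 1.304. Mouse 3 was the lowest for all 3 genes. Plk4, the member that starts centriole duplication, had 0.49, 0.23 and -0.09, and at percentile 35.8 it was in the low class.

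Cyclins outside the name rule included 9 tested genes, of which 1 was higher and 2 were lower, against 8.93% and 11.4% of all genes. The median of these cyclins was -0.44. Ccnt1, cyclin T1, partner of Cdk9, had a mean log2 ratio of 1.31, while Ccnt2, cyclin T2, had -1.46. Ccng1, cyclin G1, was in the high class at percentile 96.9 with log2 ratios of 0.48, 0.54 and 0.65, and Ccng2 was lower, as given above.

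**Figure D5:**
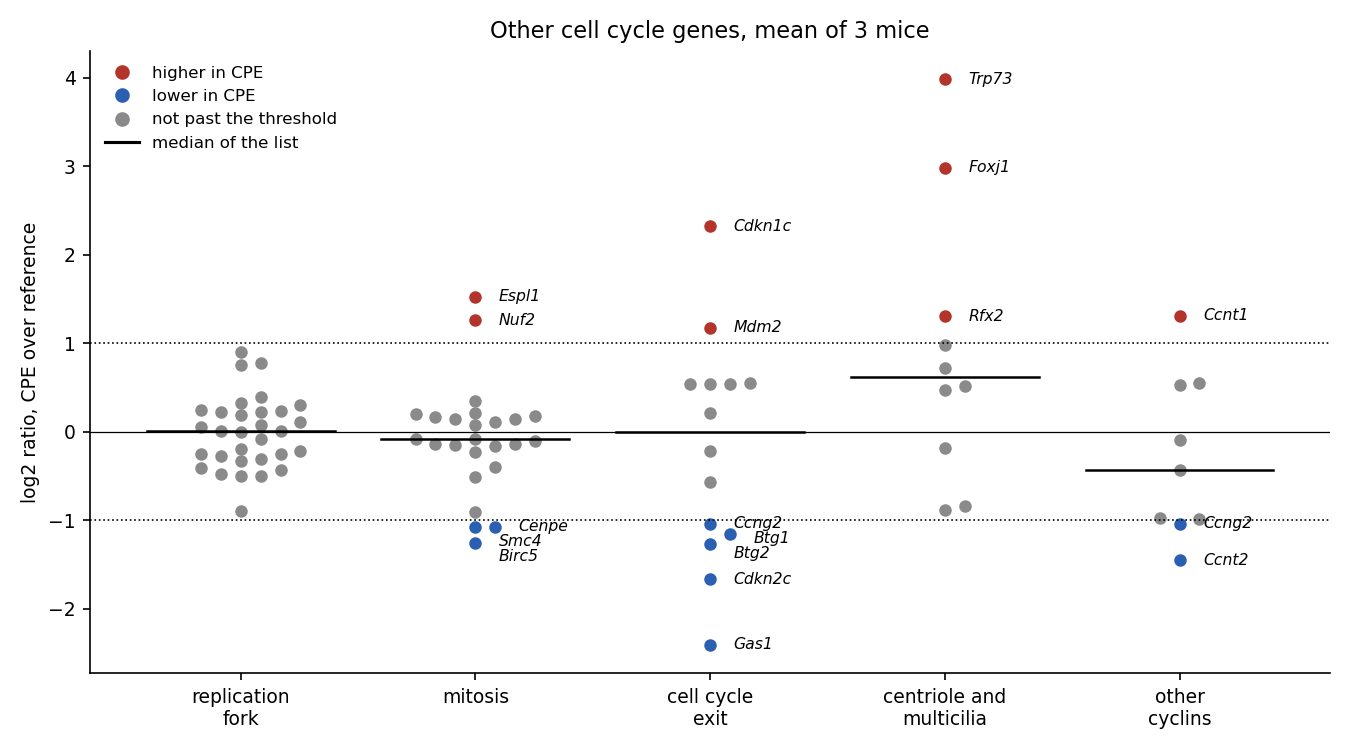
Mean log2 ratio of CPE over reference (y axis) for cell cycle genes outside the name rule, by list (x axis), with dotted lines at 2-fold. All 31 replication fork genes lie inside the lines, and Trp73, Foxj1 and Cdkn1c are drawn highest, Trp73 against a reference signal above background on 1 array only.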

How the data were processed

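RNA of the CPE of 3 mice was hybridised with 2 dyes against 1 common reference, and the arrays the authors quantified the scans (Agilent Feature Extraction 9.5.3.1). The deposited scanner tables hold the intensity of each spot in both channels, and the deposited log10 ratio of the processed signals was used as an alternative. The deposited table of log2 levels, on which the authors had run Aquantile between arrays, was another alternative. The original analysis used R 2.14.0 and limma, per the labels.

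In R 4.3.3 with limma 3.58.1, intensities were corrected with normexp (offset 50) and normalized by loess within each array, with control and outlier spots at weight 0. A probe that exceeded background clearly in either channel on each of the 3 arrays was tested against 0 with an intercept model, and p-values were adjusted by the Benjamini-Hochberg method over all probes tested. Classes came from log2 red intensities without background correction after Aquantile, averaged over mice. A gene was counted by its brightest probe over both channels. Named in the text were all called members, up to 15 in each direction, all high members and a fixed set of D cyclins, kinases, inhibitors, pocket proteins and proliferation markers. Members, roles and lists were chosen with earlier results of these data known. Of the 156 member probes, 112 matched a RefSeq accession. The limma test of the ratios was tried on simulated log2 ratios with the spread of the data. Coordinates of probes are on mm8 and those of promoters on GRCm38.p6. Only 3 arrays limit the precision, and p-values cover the spread between the mice, not that of the reference. The human arrays were not analysed here.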

Additional observations from a re-analysis of the deposited data

How the results depend on the processing

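The 10 called genes kept their direction under the alternatives tried. Leaving out 1 mouse at a time gave 4 to 6 higher and 5 to 7 lower members, against 7.29% to 11.8% and 11.1% to 12% of all genes. It left 11 to 12 members in the high class. The ratio of the SD in CPE over that in the reference ran from 1.46 to 3.72, the highest without mouse 3. Over all genes that ratio ran from 1.36 to 2.62. The scanner's log ratio gave 10 lower members, and centring each array on its median gave 8 higher members, while 14.6% and 18.8% of all genes were then lower and higher. A limma test against 2-fold itself (treat) gave 0 higher and 3 lower members (Ccnd1, Cdc14a and E2f3), against 2.47% and 4.57% of all genes. Dropping the 2-fold limit gave 8 higher and 15 lower, against 20.4% and 23.6% of all genes. In each of these cases the members' share was below that of all genes. Median centring moved the median of all genes to 0.24 on the log2 scale and that of the members to 0.10, so their difference was -0.14 against -0.09. It also turned Aurkaip1 to 0.67, Cdc16 to 0.48, Cdk4 to 0.35, Rb1 to 0.50 and Cdc37 to 0.83, and it brought the SD ratio to 1.17. The high class held 5 members when only probes well above background were ranked, and 5 at the 95th percentile. Genes near 0 changed sign easily: Cdc37 was at 5.11e-05 without background correction, 0.0250 by the scanner's log ratio, 0.0077 with array weights and 0.10 as the mean over its probes, and Rb1 was at 0.0696 by the scanner's log ratio. As the mean over probes, Ccnd2 was at -0.0163 and Cdc42 at -1.004, the latter being called lower. Without 1 mouse, Ccnd2 ranged from -0.38 to 0.47, Cdc37 from -0.0189 to 0.00657, Cdk4 from -0.42 to 0.0309, Rb1 from -0.186 to 0.0833, Cdc2a from -0.00861 to 0.353 and Plk1 from -0.0206 to 0.316. Plk3 was under 2-fold without background correction, at 0.95, Bub1b after median centring, at -0.92, and Cdc14a as the mean over probes, at -0.83. The cause of these shifts was not tested. No paired analysis was possible because all 3 samples belong to 1 group, with no second group to match mice to, and the ratio within each array already sets CPE beside the reference. Signal over background limits the dim members: 5 of 83 could not be tested and 2 were not well above background on any CPE array.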
